A study of Mus musculus with 4 samples.

Results

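The interferon-stimulated genes are the genes that cells switch on after an interferon binds its receptor. A list of 38 such genes was followed in mouse liver: 27 that respond chiefly to the type I interferons (type I-like) and 11 that respond chiefly to interferon gamma (interferon gamma-like). The lists were set by name, and many of these genes answer to both kinds of interferon. Of the 38 genes, 36 were measured by at least 1 probe set assigned to that gene alone, among 18194 genes measured in this way. All 11 interferon gamma-like genes and 25 of the 27 type I-like genes were among them. Isg15, the ubiquitin-like modifier, was not used because its probe set is also assigned to Gm9706, and no probe set was listed for Ifi44. A gene with more than 1 probe set (15 of the 36) was represented by whichever probe set was brightest on average.

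Liver RNA was hybridised to 4 Affymetrix mouse arrays, 1 for each genotype. DS6 Myc livers lacked Rps6, the gene of ribosomal protein S6, and carried the Alb-c-Myc transgene. DS6 livers lacked Rps6 without the transgene, Myc livers carried Alb-c-Myc with Rps6 intact, and WT livers had both floxed Rps6 alleles but no Cre. Each array held the combined RNA of 3 non-fasted males aged 5 weeks, all of a mixed hybrid strain background. Cre was driven by Albumin regulatory sequences, which are active in hepatoblasts and their progeny, and Alb-c-Myc is expressed from the albumin promoter in hepatocytes. Deletion in DS6 livers is incomplete, varies between regions of the liver and between mice, and liver cells of other lineages keep Rps6. With 1 array for a genotype there is no replicate error, so no test between genotypes was possible and differences are given as log2 ratios, where 1 is a 2-fold difference. As a scale for them, the standard deviation of the log2 ratio among probe sets of the same gene was 0.27 for DS6 over WT, 0.14 for Myc over WT, 0.29 for DS6 Myc over WT, 0.24 for DS6 Myc over Myc and 0.20 for DS6 Myc over DS6. This spread is technical and is not a replicate error.

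Interferon alpha and beta bind the IFNAR receptor and act through the kinases JAK1 and TYK2 and a complex that contains STAT2 and IRF9 and binds the interferon-stimulated response element (ISRE). Interferon gamma, made mainly by T and NK cells, binds the IFNGR receptor and acts on the gamma-activated site (GAS). In liver, hepatocytes, Kupffer cells and endothelial cells all respond, making antiviral proteins, immunity-related GTPases, and the proteasome subunits and peptide transporters that load MHC class I.

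The core letters of both elements were looked up in the promoters of the listed genes, taken from RefSeq (GRCm38.p6) as 250 bases before to 50 bases after each annotated start. Windows were held for 28 of the 38 genes. The ISRE core, here GAAA, any 2 bases and GAAA again, on either strand, was found in 13 of the 28 genes (46.4%) and in 3.99% of all 27025 genes with a window. The GAS core, TTCNNNGAA, which reads the same on both strands, was found in 8 of the 28 (28.6%) and in 9.55% of all genes. By class, 9 of 19 type I-like and 4 of 9 interferon gamma-like genes had an ISRE core, while 4 of 19 and 4 of 9 had a GAS core. Igtp and Bst2 had both. The cores are short and a match is not a bound site. The promoters shown are of genes, or of relatives of genes, on which the array differences described below turn. Each is the 180 bases before the start, written 5′ to 3′ along the gene, with the matches in capitals. An ISRE core on the opposite strand reads TTTC, any 2 bases and TTTC again.
Ifit1, chr19:34640709-34640888 (plus strand): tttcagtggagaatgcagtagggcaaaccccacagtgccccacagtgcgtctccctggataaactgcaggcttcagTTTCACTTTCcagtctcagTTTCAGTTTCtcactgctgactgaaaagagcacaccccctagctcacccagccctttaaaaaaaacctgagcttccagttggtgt
Ifit3, chr19:34583349-34583528 (plus strand): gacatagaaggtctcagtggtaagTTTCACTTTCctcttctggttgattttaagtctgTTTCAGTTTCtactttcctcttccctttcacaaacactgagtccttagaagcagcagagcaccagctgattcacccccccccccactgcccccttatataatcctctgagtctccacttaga
Igtp, chr11:58199376-58199555 (plus strand): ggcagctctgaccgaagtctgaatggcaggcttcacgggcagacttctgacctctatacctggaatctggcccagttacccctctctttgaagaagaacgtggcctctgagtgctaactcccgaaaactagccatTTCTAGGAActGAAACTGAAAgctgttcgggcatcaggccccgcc
Irgm1, chr11:48871421-48871600 (minus strand): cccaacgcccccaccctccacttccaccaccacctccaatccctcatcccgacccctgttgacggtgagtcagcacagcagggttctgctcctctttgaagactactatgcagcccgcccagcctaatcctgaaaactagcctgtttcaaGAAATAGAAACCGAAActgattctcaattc
Gbp2, chr3:142620483-142620662 (plus strand): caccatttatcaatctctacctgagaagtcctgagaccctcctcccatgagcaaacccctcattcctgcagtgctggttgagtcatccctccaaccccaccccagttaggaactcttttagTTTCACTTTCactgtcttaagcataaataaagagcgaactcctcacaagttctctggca
Irf8, chr8:120736178-120736357 (plus strand): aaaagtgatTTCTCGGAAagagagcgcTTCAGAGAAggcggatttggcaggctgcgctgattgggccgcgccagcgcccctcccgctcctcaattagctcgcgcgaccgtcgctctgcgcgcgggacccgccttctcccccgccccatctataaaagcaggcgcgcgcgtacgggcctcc
Ifit1 and Ifit3, from one gene cluster on chromosome 19, each held a pair of ISRE cores on the opposite strand, at 104 and 85 bases before the Ifit1 start and at 156 and 122 bases before the Ifit3 start. Igtp held a GAS core 45 bases before its start, followed by an ISRE core at 34. In Irgm1 a pair of ISRE cores overlapped, the first 30 bases before the start. Gbp2 held 1 ISRE core, at 59 bases before the start, and Irf8 held 2 GAS cores and no ISRE core. The windows of Oasl2 and Xaf1, which appear often below, held neither core.

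Before the genotypes are compared, the arrays need a short account. The 9 probe sets assigned jointly to Rps6 and its pseudogene Rps6-ps4 had a median log2 ratio of -1.76 in DS6 Myc over Myc and of -0.29 in DS6 over WT, below 0 for all 9 in both. The 2 probe sets assigned to Rps6 alone ran in opposite directions in both comparisons. The WT array stood apart: Xist, which coats the inactive X chromosome of female cells, was at 11.84 there, against 5.88 to 6.33 on the other arrays, although every pool is described as male. The Y-linked RNAs measured lay slightly below the other arrays. Kdm5d was at 7.70 in WT (8.07 to 8.25 on the others), Eif2s3y at 8.67 (8.91 to 9.11) and Uty at 7.73 (7.79 to 8.03). Pancreatic enzyme RNAs, like Xist, were higher in WT, with 7 of 7 measured at least 2-fold lower in DS6 than in WT, against 2.54% of all genes. The source of these RNAs was not tested. For DS6, the list counts, medians and roles are therefore also given with the Myc array in place of WT. That array carries the transgene, so such a change of reference changes the genotype as well. The albumin RNA Alb lay between 15.38 and 15.46 on the 4 arrays, and the 4 hepatocyte markers measured differed by at most 0.20 in DS6 over WT. Alb was the brightest of all genes on each array and the other markers lay close below it. At such levels arrays can compress differences, so these markers could show little change.

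Macrophage and Kupffer cell markers differed between the arrays in parallel with some interferon-stimulated genes. Of 10 markers, 9 were at least 2-fold higher in DS6 than in WT, beside 7.24% of all genes. The median of the 10 log2 ratios was 1.90 and their range 0.71 to 5.29. The median level of these markers was 10.21 in DS6 Myc, 12.14 in DS6, 9.46 in Myc and 9.54 in WT. Of 8 neutrophil markers, 6 were at least 2-fold higher in DS6 than in WT, and all 5 bile duct markers measured were. T and NK cells are the usual source of interferon gamma. Of 11 T and NK cell markers measured, 0 reached 2-fold in any of the 5 comparisons, and their median in DS6 over WT was 0.05. Their range in DS6 over WT was -0.26 to 0.68, with Nkg7 the highest. These markers were dim, with medians of 6.47 to 6.75 on the 4 arrays and 2 of them below 6 on each, so their ratios are uncertain. Of 4 plasmacytoid dendritic markers, 0 reached 2-fold in any comparison. In bulk liver RNA, more or fewer cells of a type and more or less RNA per cell cannot be told apart, and the part of cell composition in the results that follow was not tested.

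**Figure D1:**
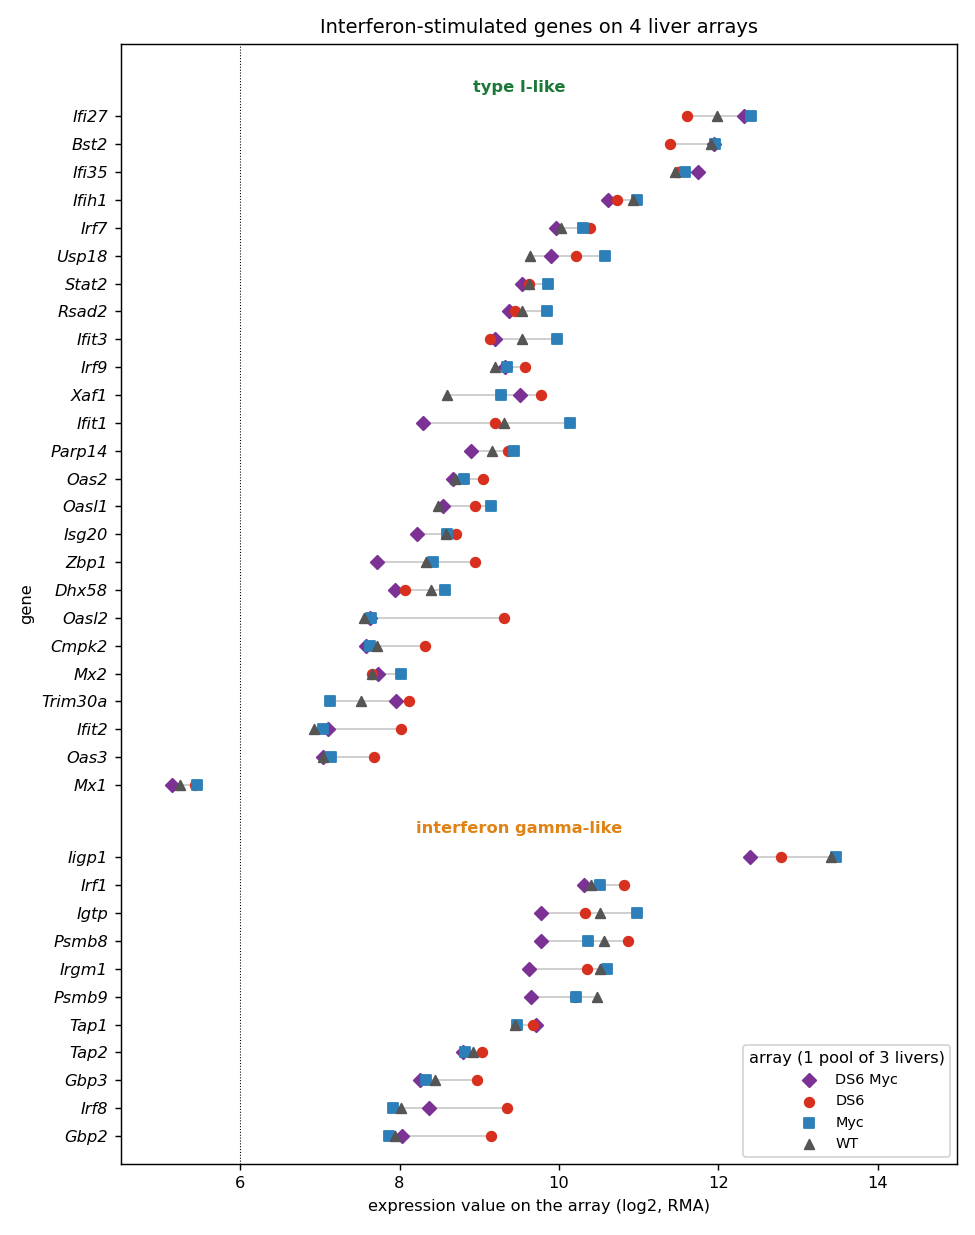
Expression values (log2, RMA) of the 36 measured interferon-stimulated genes on the DS6 Myc, DS6, Myc and WT arrays, 1 point per array of 3 combined livers, with the span of each gene as a grey line. The widest spans are those of Ifit1 (1.84) and Oasl2 (1.77), Mx1 lies left of the dotted line at 6 on every array, and levels of different genes are not comparable.

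All but 1 of the measured genes were expressed above a log2 value of 6 on every array. Mx1, a dynamin-like antiviral GTPase, was the exception, at 5.15 in DS6 Myc, 5.44 in DS6, 5.46 in Myc and 5.24 in WT. The span between the highest and the lowest array had a median of 0.69 (0.24 to 1.84) on the log2 scale and was under 2-fold for 26 of the 36 genes (72.2%), against a median of 0.46 and 83.4% for all genes with a mean of at least 6. The median span was 0.97 among interferon gamma-like and 0.63 among type I-like genes. DS6 Myc was the lowest of the 4 arrays for 20 of the 36 genes and the highest for 2, and among the interferon gamma-like genes it was the lowest for 8 of 11. Of all genes, 18.9% were lowest and 22.8% highest in DS6 Myc. The highest array was DS6 for 17 and Myc for 16 genes, and of all genes 27.5% were highest in DS6 and 22.9% in Myc. Among type I-like genes, WT was the lowest for 9 of 25 and the highest for 0, while 22.5% of all genes were lowest and 26.7% highest in WT.

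The comparison of DS6 with WT asks how these genes differ when Rps6 is deleted in hepatoblasts and the cells that derive from them. Of the 36 genes, 5 (13.9%) were at least 2-fold higher in DS6 and 0 were at least 2-fold lower. Of all genes, 7.24% were at least 2-fold higher and 2.54% at least 2-fold lower, and 8.80% of genes with a mean of at least 6 were higher. The 5 genes were Oasl2, Ifit2, Xaf1, Irf8 and Gbp2. The median log2 ratio of the list was 0.21, with 25 of 36 genes above 0, beside a median of -0.05 for all genes, whose middle 50% ran from -0.26 to 0.28. Both class medians lay within that middle range, at 0.20 for type I-like and 0.22 for interferon gamma-like genes.

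Oasl2, an oligoadenylate synthetase-like antiviral protein, showed the largest difference. Its log2 value was 7.63 in DS6 Myc, 9.32 in DS6, 7.64 in Myc and 7.55 in WT, which places DS6 3.41-fold above WT. DS6 alone was high, and the other 3 arrays lay within 0.09 of each other. Ifit2, an RNA-binding inhibitor of translation, had the same shape at a smaller size. It stood at 7.11 in DS6 Myc, 8.02 in DS6, 7.04 in Myc and 6.92 in WT, 2.14-fold higher in DS6 than in WT. Its neighbours in the same gene cluster did not share this, since the ratio of DS6 over WT was -0.12 for Ifit1 and -0.40 for Ifit3.

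Irf8, a transcription factor of the macrophage and dendritic cell lineages as well as an interferon gamma target, was at 8.37 in DS6 Myc, 9.34 in DS6, 7.92 in Myc and 8.02 in WT. DS6 was 2.50-fold above WT, and DS6 Myc lay between DS6 and the other 2 arrays. A second Irf8 probe set gave a DS6 over WT ratio of 0.78, below 2-fold. Gbp2, a guanylate-binding protein that acts on intracellular pathogens, was at 8.03 in DS6 Myc, 9.15 in DS6, 7.87 in Myc and 7.94 in WT, which is 2.32-fold higher in DS6 than in WT. Its second probe set gave a log2 ratio of 0.96, and the probe set used is of a kind whose probes can match other transcripts. Irf8 and Gbp2 were highest in DS6, where the macrophage markers were highest, but so were Oasl2, Ifit2 and Xaf1. In all, 17 of the 36 genes were highest in DS6.

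Xaf1, which opposes the cell death inhibitor XIAP, had another shape. It was at 9.52 in DS6 Myc, 9.77 in DS6, 9.27 in Myc and 8.59 in WT. WT alone was low, with DS6 2.27-fold higher. A second Xaf1 probe set was dim on all arrays, at 5.61 to 5.82, and gave a ratio of -0.01.

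With the Myc array as the reference, 3 of the 5 genes were still at least 2-fold higher in DS6, namely Oasl2 at 1.68, Irf8 at 1.42 and Gbp2 at 1.29. Ifit2 was at 0.98 and Xaf1 at 0.50. The median of the type I-like genes then turned to -0.08, while 7% of all genes were at least 2-fold higher. The median was 0.21 for the interferon gamma-like genes and 0.04 for all 36, of which 18 were above 0. Whether the turn of the type I-like median comes with the WT array or with the transgene of the Myc array cannot be told apart.

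By role, the 4 members of the oligoadenylate synthetase family, which make the activator of the antiviral nuclease RNase L or resemble the enzymes that do, were all above 0 in DS6 over WT. Their median was 0.55, with Oas3 at 0.65, Oasl1 at 0.46 and Oas2 at 0.36. With Myc as the reference, 3 of the 4 were above 0, at a median of 0.39, and Oasl1 was at -0.20. The 5 transcription factors were all above 0 too, at a median of 0.37, although only Irf8 passed 2-fold and Stat2 was at 0.00. Irf1, the primary interferon gamma response factor, was at 0.41, Irf9 at 0.37 and Irf7, which amplifies interferon alpha production, at 0.36. Set over Myc, the factors had a median of 0.22, with Stat2 at -0.24 and the other 4 above 0. The interferon-inducible GTPases were divided. The guanylate-binding proteins Gbp2 and Gbp3 were at 1.21 and 0.53, whereas the immunity-related GTPases, which attack the membranes of pathogen vacuoles, were at -0.16 for Irgm1, -0.19 for Igtp and -0.63 for Iigp1. Over the Myc array the same division held, with Gbp2 at 1.29 and Gbp3 at 0.65, against -0.25 for Irgm1, -0.65 for Igtp and -0.69 for Iigp1. Antigen processing genes lay between -0.27 and 0.30 over WT and between 0.00 and 0.50 over Myc.

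Trim30a, a tripartite-motif protein, was at 0.61 in DS6 over WT by the probe set used. Its other single-gene probe set gave 1.22, so whether it counts as 2-fold higher depends on the probe set. Over the Myc array the probe set used gave 1.00 when rounded, just under 2-fold. Other type I-like genes above 0.5 were Zbp1 at 0.62, Cmpk2, a mitochondrial nucleotide kinase, at 0.60 and Usp18, which removes ISG15 from proteins and restrains IFNAR signalling, at 0.58. Over the Myc array Zbp1 was at 0.53 and Cmpk2 at 0.70, but Usp18 was at -0.36. Below -0.3 were the membrane tether Bst2 at -0.51, Ifit3 at -0.40, Ifi27 at -0.38 and the RNA sensor Dhx58 at -0.33, and these 4 were below -0.5 over the Myc array.

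The comparison of Myc with WT asks what the transgene does where Rps6 is intact. Of the 36 genes, 0 were 2-fold higher and 0 were 2-fold lower, as for nearly all genes: 0.418% of all genes were at least 2-fold higher and 0.335% at least 2-fold lower. The classes lay on different sides of 0. Type I-like genes had a median of 0.18, with 23 of 25 above 0, and interferon gamma-like genes a median of -0.07, with 5 of 11 above 0, while the middle 50% of all genes ran from -0.10 to 0.11. The sign of the interferon gamma-like median turned to 0.07 when the probe sets of a gene were averaged. Usp18 was the highest, at 10.57 in Myc and 9.63 in WT, a log2 ratio of 0.94. Ifit1, an RNA-binding antiviral protein, followed at 0.82, Xaf1 at 0.68 and Oasl1 at 0.66. The interferon gamma-like gene furthest above 0 was Igtp, at 0.46. The only array that could replace WT here is itself a mutant, so this comparison has no version without it.

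**Figure D2:**
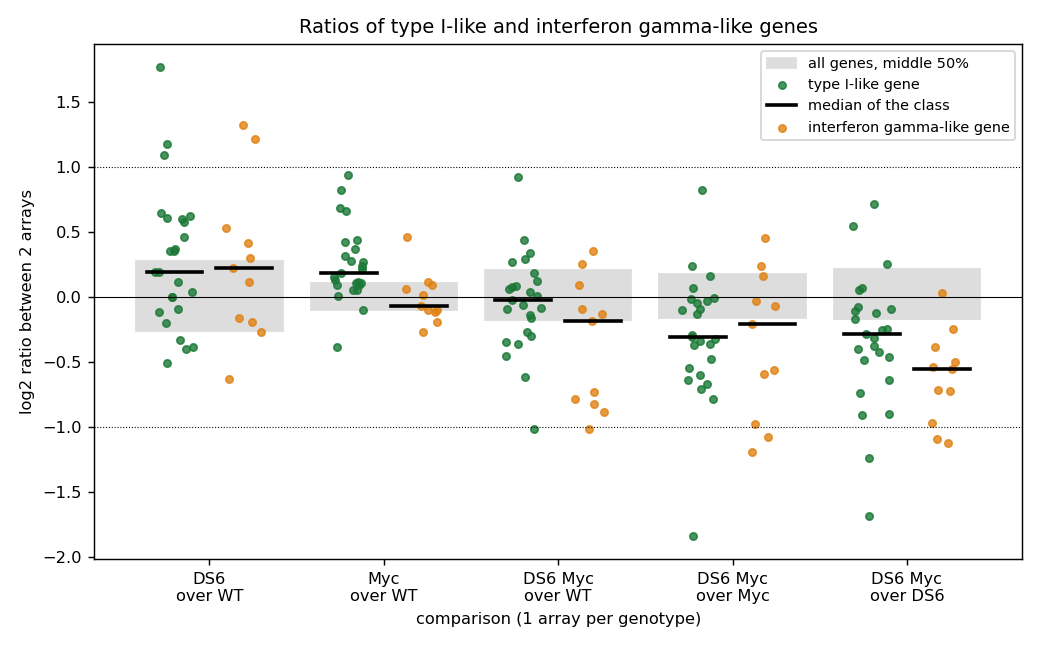
Log2 ratios of the 25 type I-like and 11 interferon gamma-like genes in the 5 comparisons, 1 point per gene, with the class median as a bar, the middle 50% of all 18194 genes as a grey band and 2-fold as dotted lines. In DS6 Myc over DS6 the class medians are -0.29 and -0.56, and 30 of the 36 genes lie below 0.

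DS6 Myc livers carried both alterations, and the list median lay below 0 in all 3 comparisons of this array. In DS6 Myc over WT, 0 of 36 genes were at least 2-fold higher and 2 (5.56%) at least 2-fold lower, beside 3.00% and 1.80% of all genes. The 2 were Ifit1 and Iigp1. The median of the list was -0.09, with 15 of 36 above 0. The type I-like median was -0.02, running from -0.05 to 0.01 over alternative processings, and the interferon gamma-like median was -0.19.

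Set against Myc livers, which share the transgene and do not involve the WT array, DS6 Myc had 0 genes at least 2-fold higher and 3 (8.33%) at least 2-fold lower, with 29 of 36 below 0 and a median of -0.30. Of all genes, 1.99% were at least 2-fold higher and 1.36% at least 2-fold lower, and their median was -0.01. The median was -0.31 for type I-like and -0.20 for interferon gamma-like genes. The 3 genes were Ifit1, Igtp and Iigp1.

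Ifit1 had the largest difference of the whole list. It was at 8.30 in DS6 Myc, 9.20 in DS6, 10.14 in Myc and 9.31 in WT. DS6 Myc was the lowest array and Myc the highest, a 3.57-fold difference, while DS6 and WT lay between them and within 0.12 of each other. Igtp, an immunity-related GTPase, was at 9.78 in DS6 Myc, 10.32 in DS6, 10.97 in Myc and 10.51 in WT. The order of the arrays was the same as for Ifit1, with DS6 Myc 2.29-fold below Myc.

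Iigp1, another immunity-related GTPase, was at 12.40 in DS6 Myc, 12.78 in DS6, 13.47 in Myc and 13.42 in WT. Both arrays of Rps6 deletion were below both arrays without it. DS6 Myc was 2.11-fold below Myc and 2.02-fold below WT, and a second probe set gave larger differences, at -1.52 and -1.40. Irgm1, the third immunity-related GTPase, was just short of 2-fold, at 9.63 in DS6 Myc, 10.35 in DS6, 10.60 in Myc and 10.51 in WT, a log2 ratio of -0.97 for DS6 Myc over Myc. DS6 Myc was again the lowest. The guanylate-binding proteins did not follow, with Gbp2 at 0.17 and Gbp3 at -0.07.

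Other type I-like genes below -0.5 in DS6 Myc over Myc were Ifit3 at -0.78, Zbp1 at -0.71, Usp18 at -0.67, Dhx58 at -0.63, Oasl1 at -0.60 and the ADP-ribosyltransferase Parp14 at -0.55. All 3 nucleic acid sensors were below 0, since Ifih1, which detects long double-stranded RNA, was at -0.36. Above 0.2 were Trim30a at 0.82, Irf8 at 0.45, Xaf1 at 0.24 and the peptide transporter subunit Tap1 at 0.24. Second probe sets gave 0.12 for Trim30a, 0.10 for Irf8 and -0.21 for Xaf1, the last of them dim. The other Tap1 probe sets, all dimmer than the one used, lay between -0.19 and 0.10.

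Against DS6 livers, DS6 Myc had 0 genes at least 2-fold higher and 4 (11.1%) at least 2-fold lower. The median was -0.39, and 30 of 36 genes were below 0. Of all genes, 0.769% were at least 2-fold higher and 4.29% at least 2-fold lower, and the median was 0.05. The interferon gamma-like median was -0.56, with 10 of 11 below 0, and the type I-like median was -0.29, with 20 of 25 below 0. The 4 genes were Oasl2, 3.22-fold lower, Zbp1, 2.36-fold lower, Gbp2, 2.17-fold lower, and Psmb8, 2.13-fold lower. Of the macrophage and Kupffer markers, 7 of 10 were at least 2-fold lower in the same comparison, at a median of -1.40.

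Zbp1, a sensor of Z-form nucleic acids that can trigger cell death, was at 7.71 in DS6 Myc, 8.95 in DS6, 8.42 in Myc and 8.33 in WT. DS6 was the highest array and DS6 Myc the lowest. Its second probe set gave -0.52 for DS6 Myc over DS6, below 2-fold. Psmb8, a catalytic subunit of the immunoproteasome, was at 9.77 in DS6 Myc, 10.86 in DS6, 10.36 in Myc and 10.56 in WT, with the same highest and lowest arrays as Zbp1. With all probe sets of a gene averaged, the genes at least 2-fold lower were 2, Oasl2 and Gbp2, and Zbp1 and Psmb8 were at -0.88 and -0.55. The second probe set of Psmb8 was dim, at 4.30 to 4.43. The genes furthest above 0 were Ifi27, at 0.72, and Bst2, at 0.55.

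**Figure D3:**
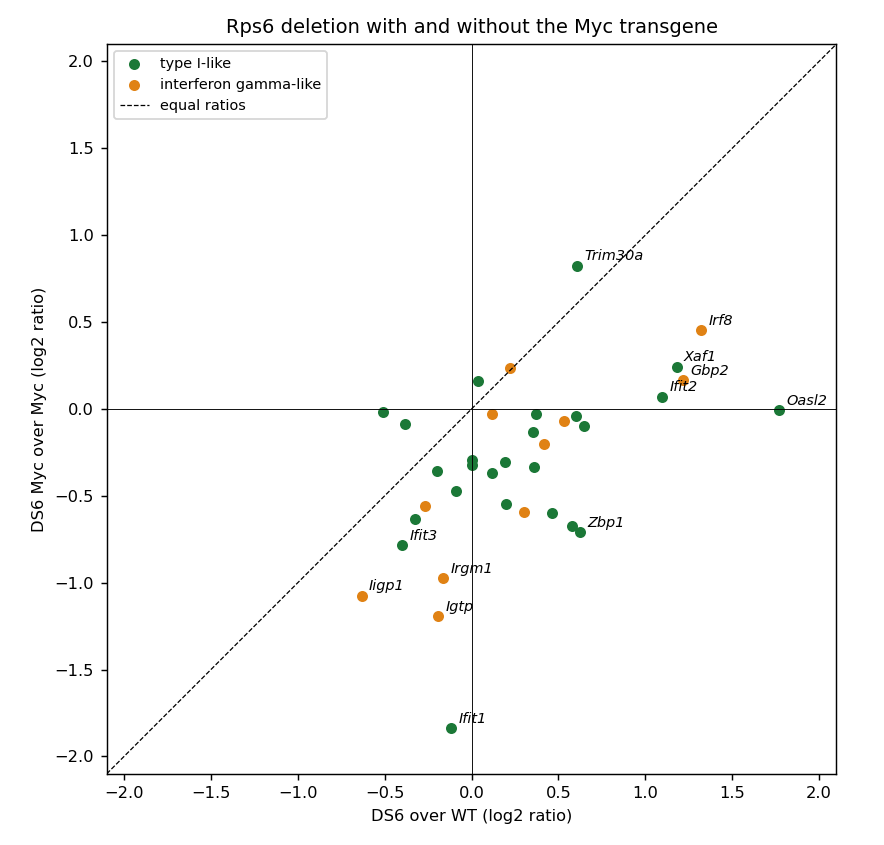
Log2 ratio of Rps6 deletion with the transgene (DS6 Myc over Myc, y axis) and without it (DS6 over WT, x axis) for each of the 36 genes, with a dashed line of equal ratios. Of the 36 genes, 31 lie below the line, 18 are below 0 with the transgene and above 0 without it, and 0 show the reverse.

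The effect of Rps6 deletion could be set side by side with and without the transgene, from pairs of arrays that have none in common. The deletions were not of equal extent, since the paper reports more recombination of the floxed allele with the transgene. The 9 joint Rps6 probe sets had a median of -1.76 in DS6 Myc over Myc and of -0.29 in DS6 over WT. The pair without the transgene includes the WT array, which stood apart in Xist and pancreatic RNAs. The part of either in the differences below was not tested. In both settings 7 genes were above 0 and 11 were below 0, while 18 were below 0 with the transgene and above 0 without it, and 0 were the reverse. The same counts over all 18194 genes were 5755, 7178, 2218 and 2970. The difference between the deletion ratios, with the transgene minus without, was below 0 for 31 of 36 genes, with a median of -0.55, against 0.03 for all genes. It was at least 1 log2 unit lower for 8 of the 36, 6 type I-like and 2 interferon gamma-like, and at least 1 unit higher for 0. Of all genes, 4.61% were at least 1 unit lower and 1.14% at least 1 unit higher. The largest were Oasl2 at -1.78, Ifit1 at -1.72, Zbp1 at -1.33 and Usp18 at -1.25. The class medians were -0.49 for type I-like and -0.62 for interferon gamma-like genes. These differences take 4 arrays and so carry the error of all 4, and 7 of the 10 macrophage and Kupffer markers were at least 1 unit lower by the same measure. In DS6 Myc over Myc alone, the markers and the list ran apart. All 10 markers were above 0 there, at a median of 0.81, whereas 29 of the 36 genes were below 0, at a median of -0.30. Across the 36 genes the correlation of both ratios was 0.52 by Pearson and 0.54 by Spearman, beside 0.61 and 0.59 across all genes. Genes are not independent replicates and no test was made of these values.

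The routes of Oasl2 and Ifit1 to a similar difference were unlike. Oasl2 was high in DS6 alone, and its deletion ratio was -0.01 with the transgene and 1.77 without it. That of Ifit1 was -1.84 with it and -0.12 without it. The promoter letters were set beside this contrast after these values had been seen. The 12 measured genes with an ISRE core had a median of -0.10 in DS6 over WT, with 5 of 12 above 0, and of -0.34 in DS6 Myc over Myc, with 10 of 12 below 0. The 14 measured genes whose windows held none had medians of 0.39, with 13 of 14 above 0, and of -0.03, with 9 of 14 below 0. In DS6 Myc over DS6 the order was the other way, at -0.36 with an ISRE core and -0.49 without. Split by the GAS core, 8 genes with it and 18 without had medians of 0.21 and 0.36 in DS6 over WT. In DS6 Myc over Myc these were -0.11 and -0.21. These are descriptions of a small number of genes chosen as a list, and no test was made.

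**Figure D4:**
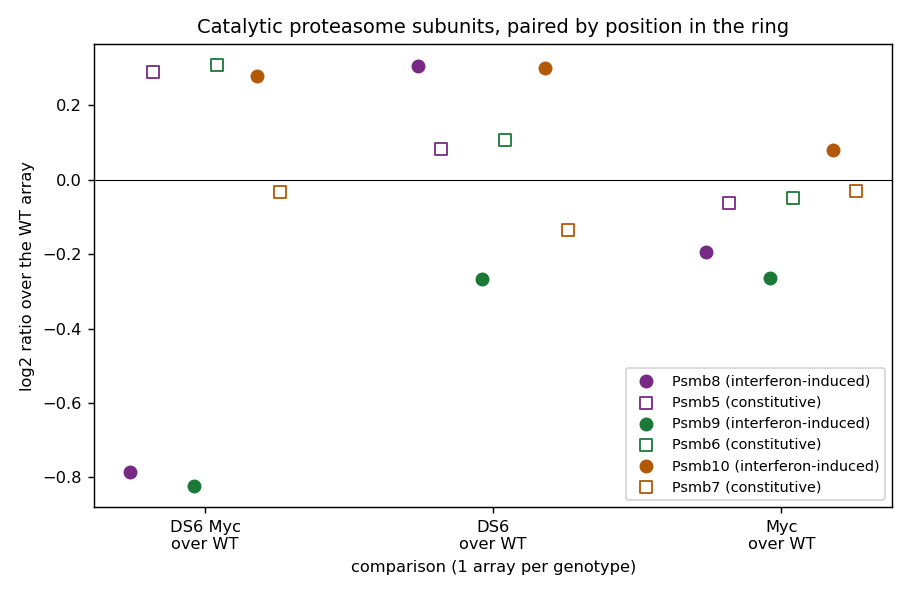
Log2 ratio over the WT array of the 3 interferon-induced catalytic proteasome subunits (filled circles) and the 3 constitutive subunits they replace (open squares), coloured by pair, in DS6 Myc, DS6 and Myc livers, 1 array each. In DS6 Myc over WT, Psmb8 and Psmb9 lie at -0.79 and -0.82, apart from the other 4 subunits between -0.03 and 0.31.

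Psmb8 and Psmb9 encode immunoproteasome subunits that take the places of Psmb5 and Psmb6 in the catalytic ring, and Psmb10 takes that of Psmb7. In DS6 Myc over WT, Psmb8 was at -0.79 and Psmb9 at -0.82, whereas their counterparts Psmb5 and Psmb6 were at 0.29 and 0.31. The pairs thus differed by -1.08 and -1.13. The third pair did not share this, with Psmb10 at 0.28 and Psmb7 at -0.03. Psmb9 was at 9.65 in DS6 Myc, 10.21 in DS6, 10.21 in Myc and 10.47 in WT, so that DS6 Myc was the lowest and WT the highest. Against Myc in place of WT, the pair differences were -0.95 for Psmb8 with Psmb5 and -0.92 for Psmb9 with Psmb6. In DS6 over WT they were 0.22 and -0.37. Tap1 and Tap2, which carry the cut peptides into the endoplasmic reticulum, were at 0.25 and -0.13 in DS6 Myc over WT.

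The partners of antigen presentation differed less. Of 14 listed MHC class I genes 11 were measured, and 0 reached 2-fold in any of the 5 comparisons. That count is near the share of all genes in DS6 over WT, 7.24% at least 2-fold higher and 2.54% at least 2-fold lower. The ratios of the 11 in DS6 over WT lay between -0.13 and 0.32. H2-D1, a classical class I heavy chain, was at 0.32, H2-K1 at 0.07 and the light chain B2m at 0.01. These are very bright probe sets, where arrays can compress differences. Tapbp, which bridges Tap1 and Tap2 to class I molecules, was at -0.50 in DS6 Myc over WT.

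Upstream of the list are the interferons themselves. Of 9 ligands 5 were measured, and 0 reached 2-fold in any comparison. In DS6 over WT, 7.24% of all genes were at least 2-fold higher and 2.54% at least 2-fold lower, so 0 of 5 is near that share. The ligands were below 0 throughout in DS6 over WT, at -0.34 for Ifna1, -0.56 for Ifna2, -0.13 for Ifna4, -0.42 for Ifnb1 and -0.20 for Ifng. So were 10180 of all 18194 genes, but only 6982 of the 13890 with a mean of at least 6, so dimmer genes were below 0 more often. The Ifna1 probe set is of a kind whose probes can match other transcripts. Ifng was at 4.49 in DS6 Myc, 4.37 in DS6, 4.48 in Myc and 4.57 in WT, and Ifnb1 at 5.96, 5.88, 6.09 and 6.30 in the same order of arrays. Ifna4 was below 6 on every array as well, whereas Ifna1 was at 7.16 or more and Ifna2 at 6.08 or more on all 4. All 5 were below 0 over the Myc array too, between -0.39 and -0.06, beside a median of -0.06 for all genes.

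Of 6 receptor chains, 2 were at least 2-fold higher in DS6 than in WT, beside 7.24% of all genes. Ifngr1, the ligand-binding chain for interferon gamma, was at 10.27 in DS6 Myc, 11.36 in DS6, 9.67 in Myc and 9.92 in WT, a log2 ratio of 1.44. Il10rb, the chain shared by the interferon lambda and interleukin-10 receptors, was at 9.66 in DS6 Myc, 10.32 in DS6, 9.12 in Myc and 9.04 in WT, a ratio of 1.28. Both were highest in DS6 and intermediate in DS6 Myc. Both passed 2-fold over the Myc array too, at 1.70 and 1.20. Of the other chains, Ifngr2, the signalling chain for interferon gamma, was at 0.74 in DS6 over WT, Ifnlr1 at 0.48, Ifnar1 at 0.07 and Ifnar2 at -0.50.

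Between receptor and target, 7 of 8 signal transduction genes were measured and 0 reached 2-fold in any comparison, with Stat3 at 0.60 and the repressor Irf2 at -0.53 in DS6 over WT. Of 6 inhibitors, Socs3, a feedback inhibitor that interleukin-6 also induces, was the only one at least 2-fold higher in DS6 than in WT. It was at 8.11 in DS6 Myc, 9.60 in DS6, 8.87 in Myc and 8.49 in WT, and so lowest in DS6 Myc. Over the Myc array it was at 0.73 in DS6, below 2-fold. Socs1, the inhibitor most tied to interferon gamma, was at -0.15 in DS6 over WT. Of 13 innate sensors and adaptors 11 were measured and 0 reached 2-fold in any comparison. Beside these 3 lists, 7.24% of all genes were at least 2-fold higher and 2.54% at least 2-fold lower in DS6 over WT. Counts of 0 or 1 in lists this short are near that share.

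The chemokines that interferon gamma induces, which attract T cells through CXCR3, departed furthest from the list. Cxcl10 was at 9.78 in DS6 Myc, 10.41 in DS6, 8.32 in Myc and 7.59 in WT. Both arrays of Rps6 deletion were above both arrays without it, with log2 ratios of 2.82 in DS6 over WT and 1.46 in DS6 Myc over Myc. Cxcl9 was at 9.19 in DS6 Myc, 10.07 in DS6, 8.64 in Myc and 8.60 in WT, a ratio of 1.47 in DS6 over WT. Over the Myc array Cxcl10 was at 2.08 and Cxcl9 at 1.43 in DS6. Cxcl11 was at -0.47 in DS6 over WT and at -0.17 in DS6 over the Myc array, and was highest in DS6 Myc, at 7.73. Unlike 29 of the 36 interferon-stimulated genes, all 3 chemokines were above 0 in DS6 Myc over Myc.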

How the data were processed

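Each of the 4 deposited columns holds 1 log2 value for every probe set of 1 array of RNA combined from 3 livers, after RMA and quantile normalization by the authors. RMA and affy are named in the submitters' processing notes, without versions. Of 45101 probe sets (64 controls), 34958 have 1 gene symbol in the platform annotation, 932 have several and 9211 have none; only the first were used, apart from the Rps6 check. Entrez identifiers of 34754 of them are in RefSeq (GRCm38.p6), which changed 0 symbols. Array medians ran from 6.85 to 6.88. Detection calls were not used here, so ratios of dim probe sets are uncertain, and quantile normalization hides any difference shared by most genes.

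Differences of log2 values (log2 ratios) were taken for 5 comparisons with Python 3.11.15, numpy 2.4.6, pandas 2.3.3 and statsmodels 0.14.6, and plotted with matplotlib 3.10.9. The call was 2-fold, set beside the share of all 18194 genes past it. With 1 array for each genotype no test was run. The probe set spread came from 3379 genes with several probe sets of a mean of at least 8 (8477 probe sets). The steps were checked on simulated data. Levels on all 4 arrays are given for each gene with a value of at least 6 on some array and a ratio of at least 1 in any comparison (10 of the 36), and for a few others chosen after their values were seen (Mx1, Usp18, Irgm1, Psmb9). From each other list up to 6 genes with the largest DS6 over WT ratios could be named, of which only some are. B2m and H2-K1 were added after their values were seen. Where a gene had several single-symbol probe sets, that with the highest mean was used. The members and lists were chosen with earlier results of these data known. Alternatives were a repeated quantile normalization, centring, loess, the mean of probe sets, leaving out dim genes or cross-matching probe sets, a 1.5-fold call and, added after seeing the data, the Myc array as reference for DS6.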

Additional observations from a re-analysis of the deposited data

Results flagged for a closer look

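In 2 genes an effect ran in opposite directions by genotype, both past 1.5-fold. For Zbp1, the ratio for Rps6 deletion was -0.71 with the transgene (DS6 Myc over Myc) and 0.62 without it (DS6 over WT). For Ifit1, the ratio for the transgene was -0.90 without Rps6 (DS6 Myc over DS6) and 0.82 with Rps6 intact (Myc over WT). Each ratio rests on 1 array per genotype, so these differences were not tested. The second Zbp1 probe set gave -0.25 and 0.59.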

How the results depend on the processing

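No paired analysis was possible because each genotype has 1 array. Of the 20 class medians and counts, 20 moved by less than the probe set spread (counts, by less than 1.5 times) under median centring, under loess, without dim genes and without cross-matching probe sets. Centring and leaving out dim genes could change little, since array medians ran from 6.85 to 6.88 and only Mx1 was dim. The spread is also a wide allowance: both class medians of DS6 over WT, 0.20 and 0.22, were smaller than its 0.27. Repeating the quantile normalization left 1 gene at least 2-fold lower in DS6 Myc over WT in place of 2. Averaging all probe sets of a gene turned the interferon gamma-like median of Myc over WT to 0.073 and left 2 genes at least 2-fold lower in DS6 Myc over DS6 in place of 4, and Xaf1 was then at 0.59 in DS6 over WT. At 1.5-fold, the number of genes higher and lower was 9 and 1 in DS6 over WT, 4 and 0 in Myc over WT, 1 and 7 in DS6 Myc over WT, 1 and 10 in DS6 Myc over Myc, and 1 and 11 in DS6 Myc over DS6. Of all genes, 13.8% and 7.06%, 1.59% and 0.951%, 8.97% and 5.20%, 6.82% and 4.28%, and 4.00% and 9.35% passed 1.5-fold in the same order. With the Myc array as the reference, chosen after seeing the data, the type I-like median of DS6 was -0.084 in place of 0.20 and 3 genes were at least 2-fold higher in place of 5. The type I-like median of DS6 Myc over WT ran from -0.05 to 0.01 over the alternatives, so its sign is not settled. Apart from fewer genes passing a stricter fold, the cause of these changes was not tested. The precision is limited by 1 array per genotype, by dim probe sets such as those of Mx1, Ifna4 and Ifng, and by compression at the brightest ones.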
